A study of Homo sapiens with 17 samples.

Results

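The genes described here are those measured in PC3M cells that received MG132 after knockdown of JMJD6, set against PC3M cells that received neither. A gene was included where its normalised count was at least 10 in at least 2 of the 4 libraries compared, which 9199 of the 14085 genes in the MG132 table met. PC3M is an established human prostate cancer cell line. The 2 siJMJD6 MG132 libraries came from cells transfected with an siRNA against JMJD6 for 72 h and then given 2.5 µM MG132 for 4 h. The 2 siNT DMSO libraries came from cells that had a non-targeting siRNA, siNT, for 72 h and then only the solvent DMSO for 4 h. Drug and knockdown therefore both differ, and their shares in a difference cannot be told apart within this comparison. Beside it stand 2 libraries of siNT cells given MG132 (2.5 µM, 4 h) and 2 of HSF1 knockout (KO) cells, A and B, given the same drug. The labels of the KO libraries do not say whether A and B are separate clones. No siRNA treatment is given for them, and the series holds no KO library with DMSO. The KO libraries may therefore differ from siNT MG132 in more than HSF1, and their values are set beside the other groups as descriptions. A second table, normalised separately, holds 3 libraries each of unstressed siNT cells (basal) and of siNT and siJMJD6 cells that were heated to 42 °C for 1 h and left to recover for 2 h. The series holds no library of JMJD6 knockdown cells without stress.

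MG132 is a peptide aldehyde that blocks the proteasome, so that damaged and short-lived proteins pile up. Cells answer with the heat shock response, in which the transcription factor HSF1 binds repeated heat shock elements and switches on the chaperones of the HSP70, HSP40, HSP90 and small heat shock protein families. They also answer with the integrated stress response, in which the transcription factor ATF4 induces genes of amino acid supply, while its target PPP1R15A (GADD34) helps to restart translation. JMJD6 is an oxygenase of the JmjC family that acts in the nucleus and has been linked to transcription and splicing. The study's title places HSF1, JMJD6 and the heat shock proteins in a feedback circuit. The comparison shows where genes stood relative to siNT cells given DMSO when MG132 was present and JMJD6 was low. Without knockdown cells given DMSO, it cannot show how much of a drug response remained.

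Each library was sequenced by QuantSeq FWD, which reads tags near the 3' end of transcripts, so values of the same gene can be compared between libraries but not levels between genes. Column totals in the MG132 table lay between 1505826 and 1819640 normalised counts. RPS24, a ribosomal protein gene, took the largest share, from 2.28% to 3.78%, with both siJMJD6 MG132 libraries (3.78% and 3.31%) above both siNT DMSO libraries (2.28% and 2.74%). Across genes, log2 values of replicates correlated at r = 0.937 for siNT DMSO and 0.919 for siJMJD6 MG132, against 0.833 to 0.875 between the groups. Both epithelial (KRT18, KRT19, EPCAM) and mesenchymal (VIM, CDH2, LGALS1) markers were read in all 8 libraries. Of 8 epithelial genes in the table the summed level was 1820.0 to 2320.0 in siNT DMSO and 2520.0 to 2830.0 in siJMJD6 MG132, and of 14 mesenchymal genes 1590.0 to 1600.0 and 1720.0 to 1860.0. The sums rest largely on the genes with the highest counts. Of 7 epithelial genes tested, 2 lay above both siNT DMSO libraries in both siJMJD6 MG132 libraries, 0 lay below and 0 were called. Of 10 mesenchymal genes tested, 4 lay above and 1 below. Over all included genes these shares were 27.8% and 30.4%. VIM itself had 484 and 602 in siNT DMSO against 214 and 385 in siJMJD6 MG132 and was the 1 mesenchymal gene called (log2 fold change -0.91, adjusted p = 0.0456), a call lost without any of 7 libraries (adjusted p from 0.0583 to 0.249). Of 11 blood and immune genes only CD14 and CD68 were in the table, summing to 33.3 and 35.4 normalised counts in siNT DMSO and 43.9 to 46.7 in siJMJD6 MG132. The part of these marker levels in the results was not tested. The labels do not state that replicates were grown separately, so the p-values rest on a spread between libraries that may be purely technical. In bulk RNA, fewer cells expressing a gene and less of its RNA per cell cannot be told apart.

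The siJMJD6 MG132 libraries differed widely from the siNT DMSO libraries. At an adjusted p under 0.05 (Benjamini-Hochberg over 9778 genes fitted, limma), 604 of the 9199 genes rose and 695 fell, and in each of these genes the 2 groups did not overlap. Such separation was common: over all 9199 genes, both siJMJD6 MG132 libraries lay above both siNT DMSO libraries in 27.8% and below both in 30.4%. Over all genes fitted, 6.2% were called higher and 7.18% lower. Of the called genes, 519 rose and 632 fell by at least 2-fold. The median log2 fold change over the 9199 genes was -0.03 and the median standard error (SE) 0.38. Of the included genes, 264 reached 10 in neither siNT DMSO library and 73 of these were called, while 288 reached 10 in neither siJMJD6 MG132 library and 95 of these were called. Such genes were included only through the group where they were high and had to differ, so their calls carry no weight. Where such a gene is named, its levels are given as a description and its place in a count is stated.

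The same test between siNT MG132 and siNT DMSO called 20 genes higher (0.205% of those fitted) and 6 lower (0.0614%). A direct test of siJMJD6 MG132 against siNT MG132 called 6.22% of the genes fitted higher and 7.35% lower. These comparisons share libraries, so their values are set side by side below and their likeness is not a result. The counts moved with single libraries. Without siNT DMSO library 1, 215 genes were called higher and 215 lower, and without siNT DMSO library 2, 245 and 232. Without siJMJD6 MG132 library 1 they were 289 and 496. The siNT MG132 calls numbered 10 without siNT MG132 library 1 and 12 without either siNT DMSO library. The 1327 calls of the direct test between the MG132 groups became 351 without siNT MG132 library 1, 715 without library 2, 877 without siJMJD6 MG132 library 1, and 862 and 863 without HSF1 KO library A or B.

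The knockdown was visible in its target. JMJD6 (chromosome 17, 76712832 to 76726799, GRCh38) had 88.7 and 70.9 normalised counts in siNT DMSO libraries 1 and 2, 166.7 and 129.8 in siNT MG132 libraries 1 and 2, and 26.6 and 16.6 in siJMJD6 MG132 libraries 1 and 2. Both knockdown libraries lay below every other library of the table. Against siNT DMSO, JMJD6 fell by 1.86 ± 0.32 on the log2 scale (SE, n = 2 against 2, adjusted p = 0.00309). HSF1, the master regulator of the chaperone genes, had a log2 fold change of 0.92 with an adjusted p of 0.0374. That call was lost without either siNT DMSO library or without siJMJD6 MG132 library 1 (adjusted p from 0.0964 to 0.208).

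Chaperone genes that MG132 raised strongly in siNT cells stood far below siNT MG132 after JMJD6 knockdown, either above DMSO by a smaller margin or not above it. HSPA1B (chromosome 6, 31827735 to 31830255) encodes stress-inducible HSP70. Its normalised counts were 211 and 275 in siNT DMSO, 4229 and 2312 in siNT MG132 and 499 and 722 in siJMJD6 MG132, while HSF1 KO libraries A and B had 82.0 and 97.0. The knockdown libraries lay above both DMSO libraries and far below both siNT MG132 libraries. HSPA1B rose by 1.31 ± 0.30 against siNT DMSO (adjusted p = 0.0137), beside 3.69 for siNT MG132 against siNT DMSO, and its log2 difference from siNT MG132 was -2.38 ± 0.30 (adjusted p = 0.000472). Its neighbour HSPA1A encodes nearly the same protein, and 3' tags of the 2 genes may be hard to assign, so both values are uncertain. HSPA1A had 746 and 980.1 normalised counts in siNT DMSO, 12970 and 7553 in siNT MG132 and 1117 and 2860 in siJMJD6 MG132. The log2 fold change against siNT DMSO was 1.06 ± 0.38 and missed the threshold (adjusted p = 0.0790).

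TBX3 and PPP1R15A too lay above DMSO and below siNT MG132 after JMJD6 knockdown. TBX3 (chromosome 12, 114670254 to 114684164), a T-box transcriptional repressor, had 34.0 and 36.4 normalised counts in siNT DMSO, 633 and 343 in siNT MG132, 80.9 and 159.9 in siJMJD6 MG132 and 49.5 and 47.5 in the KO libraries. All 4 groups stayed apart, in the order DMSO, KO, JMJD6 knockdown and siNT MG132. It rose by 1.67 ± 0.37 against siNT DMSO (adjusted p = 0.0107) and its difference from siNT MG132 was -2.02 (adjusted p = 0.00413, and 0.0614 without siNT MG132 library 1). PPP1R15A (chromosome 19, 48872392 to 48876057) had 51.5 and 35.7 in siNT DMSO, 241 and 274.5 in siNT MG132, 71.3 and 92.9 in siJMJD6 MG132 and 274 and 299 in the KO libraries. The KO libraries were as high as the siNT MG132 libraries here, whereas the knockdown libraries were close to DMSO. Its rise of 0.91 ± 0.28 against siNT DMSO only just passed (adjusted p = 0.0488), and its difference from siNT MG132 was -1.65 (adjusted p = 0.00298). Leaving out any library but siJMJD6 MG132 library 1 ended the PPP1R15A call (adjusted p from 0.0605 to 0.292), and leaving out siNT DMSO library 1 ended those of TBX3 (adjusted p = 0.0668) and HSPA1B (adjusted p = 0.111).

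HSP90AA1 went to the other side of DMSO. This gene for inducible cytosolic HSP90 had 10210 and 9900.0 normalised counts in siNT DMSO, 30730 and 26710 in siNT MG132, 4040 and 3662 in siJMJD6 MG132 and 5819 and 4848 in the KO libraries. The knockdown libraries were the lowest of the table, and among the groups given MG132 only siNT stood above siNT DMSO. HSP90AA1 fell by 1.39 ± 0.23 against siNT DMSO (adjusted p = 0.00256), and the difference from siNT MG132 was -2.90 (adjusted p = 1.66e-05). HSPA8, the constitutive HSP70, had 324 and 422 normalised counts in siNT DMSO against 123 and 269.5 in siJMJD6 MG132, and HSP90AB1, the constitutive HSP90, 8518 and 8307 against 5301 and 5733. Both genes were lower in each knockdown library than in each DMSO library, but neither was called (log2 fold changes -1.01 and -0.61, adjusted p = 0.0649 and 0.0810). DNAJB1, the HSP40 that delivers clients to HSP70, had 1580 and 1977 in siNT DMSO, 11240 and 11140 in siNT MG132 and 2926 and 2081 in siJMJD6 MG132, which left 0.48 ± 0.25 over DMSO (adjusted p = 0.221). BAG3, a co-chaperone that feeds aggregates into autophagy, had 133 and 249 in siNT DMSO, 1630 and 763 in siNT MG132 and 111 and 253 in siJMJD6 MG132, so the DMSO and knockdown values overlapped. Its difference from siNT MG132 was -2.73 (adjusted p = 0.00181).

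HSPB1, HSPBP1 and CLU were the called members of the list of BAG and small heat shock proteins, and 9 of its 12 members were not called. HSPB1 (HSP27), which holds unfolded proteins until they can be refolded, had 824 and 1063 normalised counts in siNT DMSO, 1746 and 1757 in siNT MG132 and 2136 and 1977 in siJMJD6 MG132. Both knockdown libraries were above both siNT MG132 libraries. It rose by 1.13 ± 0.25 against siNT DMSO (adjusted p = 0.0104), and so did the HSP70 nucleotide exchange factor HSPBP1 (1.14 ± 0.24, adjusted p = 0.00906) and the secreted chaperone CLU (1.86 ± 0.43, adjusted p = 0.0148). All 3 calls were lost without siNT DMSO library 1 (adjusted p = 0.107, 0.0589 and 0.130), that of HSPBP1 also without library 2 (adjusted p = 0.0644).

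As lists, the chaperone families showed few calls in the comparison with DMSO. Of 9 HSP70 and HSP110 genes only HSPA1B was called, with a median log2 fold change of 0.49. Of 14 HSP40 co-chaperones only DNAJB12 was called, with a median of 0.25. DNAJB12 was included only through its siNT DMSO libraries (20.2 and 21.0, against 5.39 and 6.42 in siJMJD6 MG132). Of 18 HSP90 genes and co-chaperones only HSP90AA1 was called, with a median of 0.15. Of 12 BAG and small heat shock protein genes the 3 named above were called, all higher, with a median of 0.27. Of 14 TRiC and prefoldin genes 2 were called higher and 2 lower. Among them was VBP1, a prefoldin subunit that fell by 2.08 ± 0.31 (adjusted p = 0.00108). These shares stand beside 6.2% higher and 7.18% lower over all genes fitted. All gene lists, here and below, were chosen with earlier results of these data known, so shares set beside those over all genes are descriptions.

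Heat shock elements were looked for in RefSeq promoter windows (assembly GRCh38.p14, 250 bases before to 50 bases after each start), searching both strands for GAANNTTC, 2 facing units of the element. The letters occurred in 8.21% of 27305 genes with a window and in 31.8% of the 44 matched genes of the 4 chaperone lists (HSP70, HSP40, HSP90 and BAG with small heat shock proteins). A match describes the letters and is not a measured binding site. The following 60-base stretches, 5′ to 3′ on the gene's strand with the match in capitals, are shown because these 4 genes all carry the letters and ended at different places relative to DMSO, as the values above and below show. They lie at chr6:31827607-31827666 (HSPA1B, plus strand), chr14:102087094-102087153 (HSP90AA1, minus strand), chr19:6530849-6530908 (TNFSF9, plus strand) and chr6:31497980-31498039 (MICB, plus strand).
HSPA1B: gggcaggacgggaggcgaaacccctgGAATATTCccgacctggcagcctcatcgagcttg
HSP90AA1: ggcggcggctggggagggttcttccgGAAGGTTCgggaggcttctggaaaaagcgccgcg
TNFSF9: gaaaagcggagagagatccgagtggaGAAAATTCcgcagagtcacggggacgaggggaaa
MICB: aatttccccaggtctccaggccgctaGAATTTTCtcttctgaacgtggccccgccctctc

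A second set of genes called between siNT MG132 and siNT DMSO also stood above DMSO after JMJD6 knockdown. Most of them had no detected difference from siNT MG132, which does not show that the 2 groups were equal. TNFSF9 (4-1BB ligand), a costimulatory cytokine, had 56.8 and 41.4 normalised counts in siNT DMSO, 279 and 352 in siNT MG132 and 213 and 276 in siJMJD6 MG132. MICB, a stress-induced ligand of the NKG2D receptor of natural killer cells, had 17.4 and 11.9 in siNT DMSO, 100.9 and 89.0 in siNT MG132, 109 and 88.4 in siJMJD6 MG132 and 15.2 and 16.5 in the KO libraries. In both genes the knockdown libraries were far above DMSO. For MICB they spanned the siNT MG132 range while the KO libraries lay within the DMSO range, and for TNFSF9 both were just under siNT MG132. TNFSF9 rose by 2.30 ± 0.29 (adjusted p = 0.000404) and MICB by 2.69 ± 0.35 (adjusted p = 0.000530) against siNT DMSO, and their differences from siNT MG132 were -0.37 ± 0.29 and 0.05 ± 0.35 (adjusted p = 0.436 and 0.938). The immediate-early gene IER5, known as an HSF1 target and cofactor, had 80.4 and 88.4 in siNT DMSO, 322 and 362 in siNT MG132 and 331 and 270.5 in siJMJD6 MG132. It rose by 1.81 ± 0.25 (adjusted p = 0.000624). Its relative IER5L was higher in the knockdown libraries (610.2 and 819.8) than in siNT MG132 (438.8 and 316.8) or DMSO (118 and 119) and rose by 2.56 against siNT DMSO (adjusted p = 0.000139). Its difference from siNT MG132 (0.92, adjusted p = 0.0373) was lost without any of 7 libraries (adjusted p from 0.0521 to 0.202). DEDD2, a death effector domain gene, rose by 1.72 (adjusted p = 0.00296), and GADD45B, a stress sensor of the growth arrest and DNA damage family, by 1.60 ± 0.30 (adjusted p = 0.00487). In these 6 genes the call of siJMJD6 MG132 against siNT DMSO held in every alternative run. The call of siNT MG132 against siNT DMSO did so for TNFSF9 and IER5 only. It was lost in some runs for MICB, IER5L, GADD45B (adjusted p = 0.0118 in the main limma fit) and DEDD2 (adjusted p = 0.0421). MICB, IER5L and DEDD2 were chosen after their values were seen.

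ZFAND2A and TRIM26, like TBX3, had knockdown libraries above DMSO and below siNT MG132. ZFAND2A (AIRAP), which binds the proteasome during stress, had 56.8 and 45.8 normalised counts in siNT DMSO, 491 and 398.5 in siNT MG132 and 238 and 110.5 in siJMJD6 MG132. TRIM26, a ubiquitin ligase, had 34.0 and 42.2, 189 and 346, and 119 and 124 in the same order. Both genes kept their 3 groups apart, with the knockdown libraries in the middle. Each rose by 1.65 against siNT DMSO (adjusted p = 0.00725 and 0.00612) and was lower than in siNT MG132, with log2 differences of -1.44 and -1.07 (adjusted p = 0.0149 and 0.0444). The ZFAND2A call against DMSO was lost without siNT DMSO library 2 (adjusted p = 0.0555) and that of TRIM26 without library 1 (adjusted p = 0.0567). The differences from siNT MG132 were lost without siNT MG132 library 1 (adjusted p = 0.114) or siJMJD6 MG132 library 2 (adjusted p = 0.0626) for ZFAND2A, and for TRIM26 without any library but siNT MG132 library 1 (adjusted p from 0.0558 to 0.302). HMOX1 (haem oxygenase) had 88.3 and 105 in siNT DMSO, 552 and 510.8 in siNT MG132 and 368 and 122 in siJMJD6 MG132, with no call against DMSO (1.13 ± 0.38, adjusted p = 0.0671). Its 2 knockdown libraries were far from each other, and without library 2 of that group the gene was called (adjusted p = 0.000501). DDIT3 (CHOP), a pro-apoptotic partner of ATF4, had 84.0 and 97.1 in siNT DMSO, 221 and 263 in siNT MG132 and 95.8 and 129 in siJMJD6 MG132, and was not called (0.30 ± 0.26, adjusted p = 0.475).

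**Figure D1:**
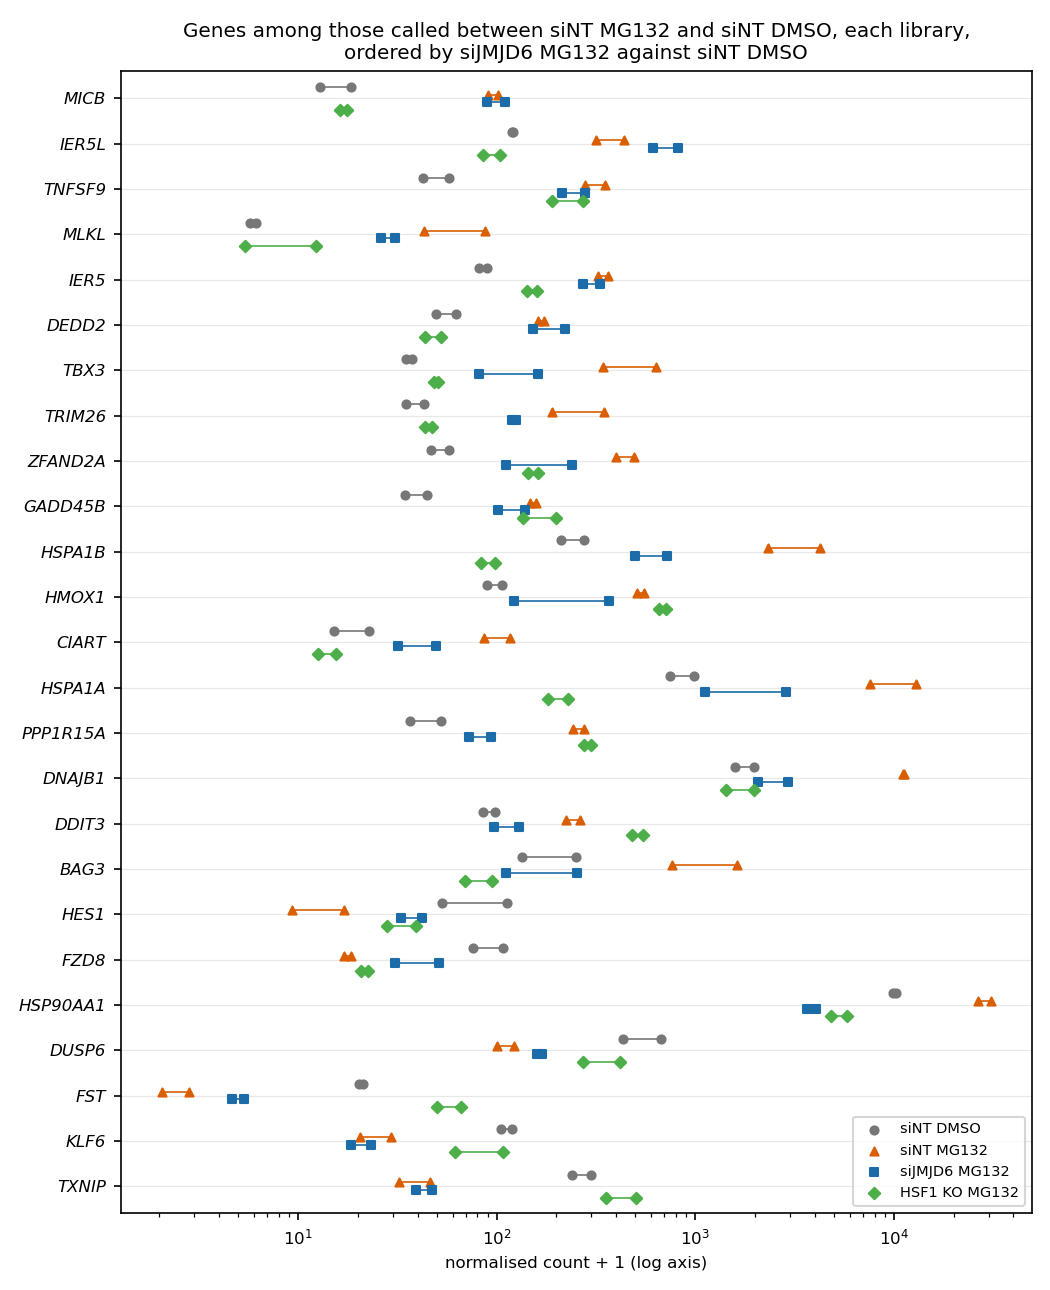
Normalised count plus 1 (log axis) of genes among those called between siNT MG132 and siNT DMSO, with each library as a point, a line joining the 2 libraries of a group and genes ordered by their log2 fold change between siJMJD6 MG132 and siNT DMSO. The blue squares (siJMJD6 MG132) lie with the orange triangles (siNT MG132) for MICB, IER5, TNFSF9, KLF6 and TXNIP, near the grey circles (siNT DMSO) for BAG3 and DNAJB1, and left of them for HSP90AA1.

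TXNIP, KLF6 and DUSP6, which were low in siNT MG132, were low after JMJD6 knockdown too. TXNIP, which binds thioredoxin and slows glucose uptake, had 297 and 239.6 normalised counts in siNT DMSO, 45.4 and 31.1 in siNT MG132, 38.4 and 46.4 in siJMJD6 MG132 and 353 and 500.1 in the KO libraries. KLF6, a growth-regulating zinc finger factor, had 103.6 and 119 in siNT DMSO, 19.6 and 28.3 in siNT MG132 and 22.4 and 17.6 in siJMJD6 MG132. DUSP6, the phosphatase that shuts off ERK, had 430.3 and 674 in siNT DMSO, 99.95 and 122 in siNT MG132 and 158 and 167 in siJMJD6 MG132. In all 3 genes both groups with MG132 lay below DMSO with no overlap. TXNIP fell by 2.63 ± 0.30 (adjusted p = 0.000217), KLF6 fell by 2.42 ± 0.37 (adjusted p = 0.00143) and DUSP6 fell by 1.72 ± 0.29 (adjusted p = 0.00270) against siNT DMSO, and their differences from siNT MG132 were 0.16, -0.24 and 0.56 (adjusted p = 0.761, 0.717 and 0.231). These 3 calls of siJMJD6 MG132 against siNT DMSO held in every alternative run. The call of siNT MG132 against siNT DMSO did so for TXNIP, but was lost in some runs for KLF6 and DUSP6. MYC, the growth-promoting transcription factor, had 164 and 240.3 in siNT DMSO, 45.4 and 53.9 in siNT MG132 and 20.3 and 89.2 in siJMJD6 MG132, and fell by 2.19 ± 0.52 against siNT DMSO (adjusted p = 0.0155). The MYC call was lost without siNT DMSO library 2 (adjusted p = 0.102) or siJMJD6 MG132 library 1 (adjusted p = 0.0786). HES1, a Notch target, had 111.5 and 51.8 in siNT DMSO, 8.28 and 16.0 in siNT MG132 and 32.0 and 40.8 in siJMJD6 MG132, and was not called against DMSO (adjusted p = 0.138).

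Of 38 proteasome subunit genes 1 was called higher and 1 lower, with a median log2 fold change of 0.02. In siNT MG132 their median was 0.18. Of 23 genes of ubiquitin and aggregate handling 5 were called higher and 1 lower, with a median of 0.44, beside 6.2% higher and 7.18% lower over all genes fitted. They included UBB, a polyubiquitin gene, with 1076 and 1252 normalised counts in siNT DMSO against 3420 and 2145 in siJMJD6 MG132, a rise of 1.22 (adjusted p = 0.00811) that was lost without siNT DMSO library 1 (adjusted p = 0.0786). The autophagy gene GABARAPL1 had 130.4 and 131 in siNT DMSO, 207 and 163 in siNT MG132 and 615 and 327 in siJMJD6 MG132, the highest values in the knockdown, and rose by 1.77 ± 0.31 (adjusted p = 0.00311). Of 19 genes of folding and degradation in the endoplasmic reticulum only HERPUD1 was called, with a list median of 0.33. HERPUD1, part of the machinery that exports misfolded proteins from that compartment, had 245 and 238 in siNT DMSO, 588 and 463 in siNT MG132 and 86.2 and 159.8 in siJMJD6 MG132. Knockdown and siNT MG132 lay on opposite sides of DMSO, with a log2 fold change of -1.03 ± 0.29 against DMSO (adjusted p = 0.0329) that was lost without any of 5 libraries (adjusted p from 0.0626 to 0.184).

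Of 31 ATF4 and CHOP targets, 15 were called lower, 14 were not called and 2 were called higher, beside 7.18% lower and 6.2% higher over all genes fitted. This list was chosen with earlier results of these data known, so the contrast is a description. The count called lower was 7 without siNT DMSO library 2 and 10 without library 1. In the list the median log2 fold change was -1.09, against -0.03 over the 9199 genes. DDIT4 (REDD1), a stress-induced inhibitor of mTORC1, had 1291 and 1566 normalised counts in siNT DMSO, 3085 and 3170 in siNT MG132, 115 and 64.9 in siJMJD6 MG132 and 2960.0 and 2000.0 in the KO libraries. The knockdown libraries were far below every other library. DDIT4 fell by 4.02 ± 0.29 against siNT DMSO (adjusted p = 1.88e-05), the largest fall among the named genes, and its difference from siNT MG132 was -5.16 (adjusted p = 7.73e-07). CHAC1, which breaks down glutathione, had 205 and 158 in siNT DMSO, 345 and 409 in siNT MG132, 17.1 and 16.6 in siJMJD6 MG132 and 746 and 960.0 in the KO libraries, and fell by 3.34 ± 0.26 (adjusted p = 2.04e-05). ASNS (asparagine synthetase) had 683 and 1024 in siNT DMSO, 759 and 1439 in siNT MG132 and 136 and 143 in siJMJD6 MG132, and fell by 2.58 ± 0.30 (adjusted p = 0.000250). SLC7A11, the cystine importer, had 459 and 662 in siNT DMSO, 620.0 and 762 in siNT MG132 and 121 and 64.9 in siJMJD6 MG132. It fell by 2.62 ± 0.31 (adjusted p = 0.000259).

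ATF4 itself was lower as well, with 707 and 932 normalised counts in siNT DMSO, 1072 and 1771 in siNT MG132 and 346 and 269 in siJMJD6 MG132. The order of the groups was the same as for DDIT4. It fell by 1.41 ± 0.27 against siNT DMSO (adjusted p = 0.00534, and 0.0601 without siNT DMSO library 2). Further falls, named after their values were seen, were those of NUPR1 (-2.08), PSAT1 of serine synthesis (-1.91) and the amino acid transporter SLC7A5 (-1.15, a call lost without siNT DMSO library 2 at an adjusted p of 0.0697). The 2 members called higher were PPP1R15A, described above, and ATF3 (1.40 ± 0.33, adjusted p = 0.0163), a repressor induced by many stresses. ATF3 had 27.0 and 26.3 in siNT DMSO, 46.4 and 57.7 in siNT MG132 and 63.8 and 80.9 in siJMJD6 MG132, and its call was lost without either siNT DMSO library (adjusted p = 0.0833 and 0.0829). Of 20 aminoacyl-tRNA synthetase genes, which charge tRNAs with amino acids, 5 were called, all lower, with a median of -0.67. Over all genes fitted 7.18% were called lower. GARS, the synthetase for glycine, fell by 1.94 ± 0.27 (adjusted p = 0.000812).

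The core of the ATF4 site was searched in the same promoter windows as TGATGNAA on both strands. The letters occurred in 4.46% of 27305 genes and in 28.0% of the 25 matched genes of the ATF4 and CHOP list, 7 genes. The stretches below, with the match in capitals (TTGCATCA reads the motif on the opposite strand), are shown because these genes carry the letters and were called in both directions after JMJD6 knockdown under MG132. CHAC1, ASNS and HERPUD1 were called lower and ATF3 higher, and HERPUD1 is not on the ATF4 and CHOP list. BCAT1, which carries the letters, is not on the list and was called lower too, is not shown. The stretches lie at chr15:40953236-40953295 (CHAC1, plus strand), chr7:97872443-97872502 (ASNS, minus strand), chr16:56931940-56931999 (HERPUD1, plus strand) and chr1:212565190-212565249 (ATF3, plus strand).
CHAC1: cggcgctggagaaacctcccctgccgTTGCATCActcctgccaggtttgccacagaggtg
ASNS: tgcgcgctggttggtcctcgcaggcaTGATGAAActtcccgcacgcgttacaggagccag
HERPUD1: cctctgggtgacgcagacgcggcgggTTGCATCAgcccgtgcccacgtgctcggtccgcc
ATF3: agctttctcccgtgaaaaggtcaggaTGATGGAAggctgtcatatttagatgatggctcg

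Most genes of cell division measured here were lower as well. Of 27 mitotic genes 19 were called, all lower, beside 7.18% called lower over all genes fitted. Their median log2 fold change was -1.47, the lowest median of the lists plotted. The mitotic list was chosen with earlier results of these data known, and PRR11, 1 of the 10 largest falls, is on it. The contrast with all genes is therefore a description. In the same 27 genes siNT MG132 had 0 limma calls against DMSO (0 higher and 0 lower at an unadjusted p under 0.05) and a median of -0.25. PRR11, which is needed for cell cycle progression, had 586 and 441 normalised counts in siNT DMSO, 549 and 480.5 in siNT MG132 and 43.7 and 56.6 in siJMJD6 MG132. The knockdown libraries stood apart while the siNT groups overlapped. PRR11 fell by 3.33 ± 0.26 (adjusted p = 2.04e-05), the spindle midzone organiser PRC1 fell by 2.76 ± 0.30 (adjusted p = 0.000170) and the mitotic kinase AURKA fell by 2.33 ± 0.26 (adjusted p = 0.000183). The kinase PLK1 had 118 and 142 in siNT DMSO against 13.9 and 25.9 in siJMJD6 MG132, and FOXM1, a transcription factor for mitotic genes, 91.25 and 98.5 against 9.66 and 27.8. Their log2 fold changes were -2.71 and -2.45 (adjusted p = 0.00104 and 0.00276).

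S phase genes went the same way in part. Of 25, 8 were called lower and 1 higher, with a median of -0.85, beside 7.18% lower and 6.2% higher over all genes fitted. UNG, which removes uracil from DNA, had 299 and 239.7 normalised counts in siNT DMSO and 60.7 and 89.1 in siJMJD6 MG132 and fell by 1.85 ± 0.27 (adjusted p = 0.000975). The cyclin-dependent kinase inhibitor CDKN1A (p21), which halts the cycle, had 16.5 and 14.0 in siNT DMSO, 28.9 and 46.3 in siNT MG132 and 115 and 105 in siJMJD6 MG132. It was highest in the knockdown libraries and rose by 2.77 ± 0.39 against siNT DMSO (adjusted p = 0.000812). MDM2 had 42.1 and 25.8 in siNT DMSO against 39.3 and 12.9 in siJMJD6 MG132, with overlapping groups and no call (adjusted p = 0.508). The counts of called cell cycle genes depend on single libraries: without siNT DMSO library 1, 7 mitotic and 1 S phase genes were called lower. The counts were 11 and 2 without siNT DMSO library 2, and 10 and 4 without siJMJD6 MG132 library 1.

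**Figure D2:**
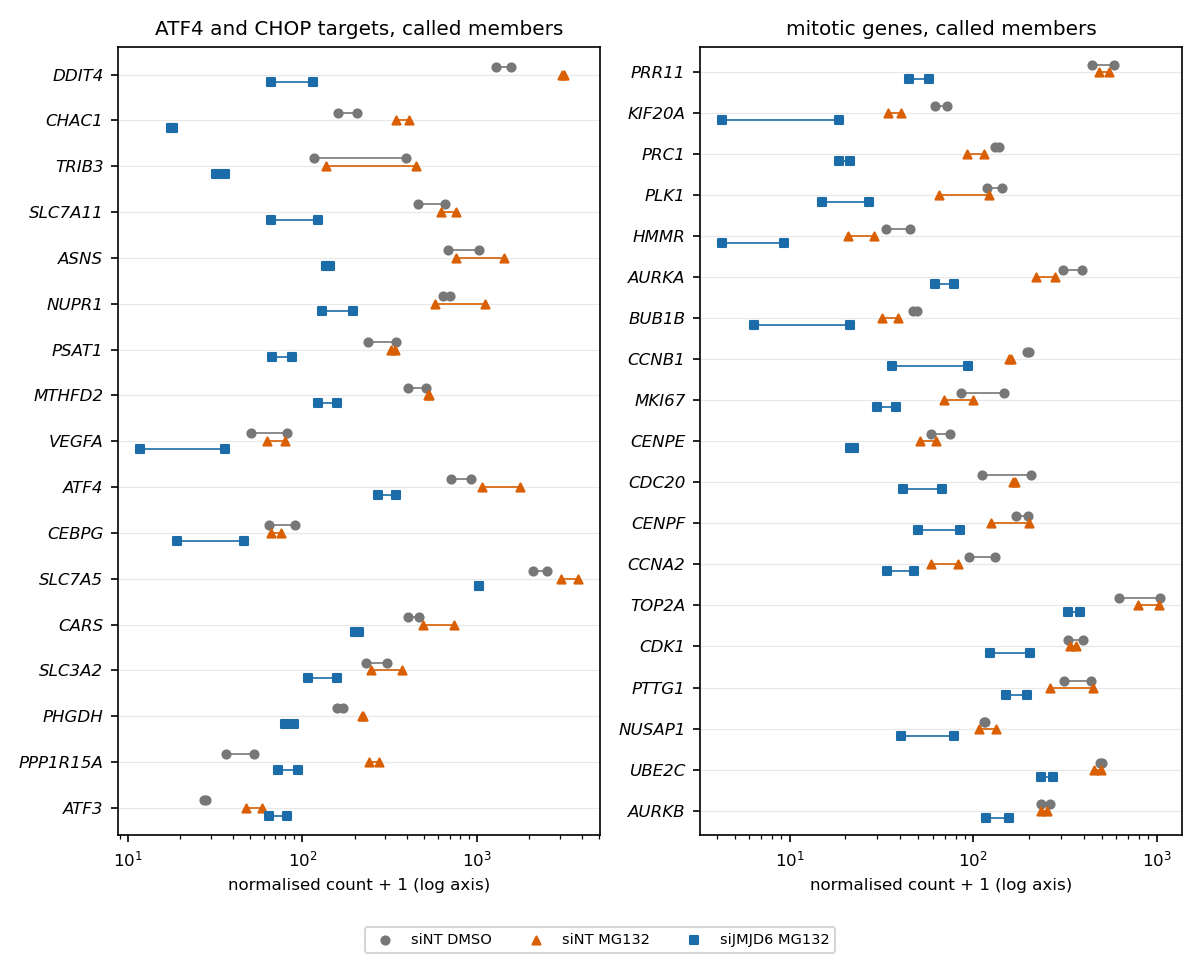
Normalised count plus 1 (log axis) of the called members of the ATF4 and CHOP list (left) and the mitotic list (right), with each library as a point, a line joining the 2 libraries of a group and genes ordered by log2 fold change. In every gene of the right panel and in all but PPP1R15A and ATF3 of the left panel, the siJMJD6 MG132 squares lie below both siNT DMSO circles. The gap is widest for DDIT4, at a log2 fold change of -4.02.

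The remaining lists are given beside 6.2% called higher and 7.18% called lower over all genes fitted. Of 19 NRF2 targets, the genes of oxidant defence, 3 were called higher and 2 lower, with a median log2 fold change of -0.17. OSGIN1, an oxidative stress growth inhibitor, had 10.3 and 11.9 normalised counts in siNT DMSO, 33.0 and 44.4 in siNT MG132 and 123 and 94.9 in siJMJD6 MG132 and rose by 3.18 ± 0.35 (adjusted p = 0.000183). The ferritin light chain FTL rose by 1.52 ± 0.28 (adjusted p = 0.00384), from 672 and 528 to 2042 and 1435. The NRF2 target that fell most was SLC7A11, which is also on the ATF4 list. Of 27 hypoxia and glycolysis genes 4 were called higher and 4 lower, with a median of -0.07. EGLN3, an oxygen-sensing prolyl hydroxylase, had 5.09 and 5.40 in siNT DMSO, 9.30 and 4.66 in siNT MG132 and 57.2 and 56.9 in siJMJD6 MG132. It is 1 of the 4 counted as higher, but it was included only through the knockdown libraries. ADM, the vasodilator adrenomedullin, rose by 2.17 ± 0.35 (adjusted p = 0.00199). In contrast BNIP3, a mitophagy receptor, fell by 1.56 (adjusted p = 0.00725, and 0.0618 without siNT DMSO library 2).

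Of 11 interferon response genes 3 were called, all higher, with a median of 0.64, beside the same 6.2% and 7.18%. IFI6, an antiviral gene, had 12.96 and 16.2 normalised counts in siNT DMSO, 21.7 and 15.1 in siNT MG132 and 143 and 75.3 in siJMJD6 MG132 and rose by 2.76 ± 0.47 (adjusted p = 0.00283). ISG15, a ubiquitin-like protein, rose by 1.18 (adjusted p = 0.0124), a call lost without either siNT DMSO library or siJMJD6 MG132 library 1 (adjusted p from 0.0708 to 0.0754). OAS1, a sensor of double-stranded RNA, is 1 of the 3 but was included only through the knockdown libraries, with 5.99 and 6.90 in siNT DMSO against 33.9 and 31.7. The same holds for IL11, a cytokine of the interleukin 6 family, with 4.22 and 1.09 against 67.7 and 32.6. Of 22 cholesterol synthesis genes 2 were called higher and 3 lower. Of 24 splicing regulators 1 was called higher and 4 lower, and HNRNPA1 fell by 1.74 ± 0.23 (adjusted p = 0.000545), from 641 and 563 to 172 and 187. Of 23 JmjC oxygenases 2 were called higher and 2 lower, JMJD6 among the latter. Of 40 ribosomal protein genes 0 were called by limma (at an unadjusted p under 0.05, 6 higher and 1 lower), and their median was 0.09. Of 37 respiratory chain subunits 2 were called higher and 2 lower, among them ATP5G1, subunit c of the ATP synthase, which fell by 2.34 ± 0.29 (adjusted p = 0.000357) from 1546 and 1513 to 419 and 216.

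**Figure D3:**
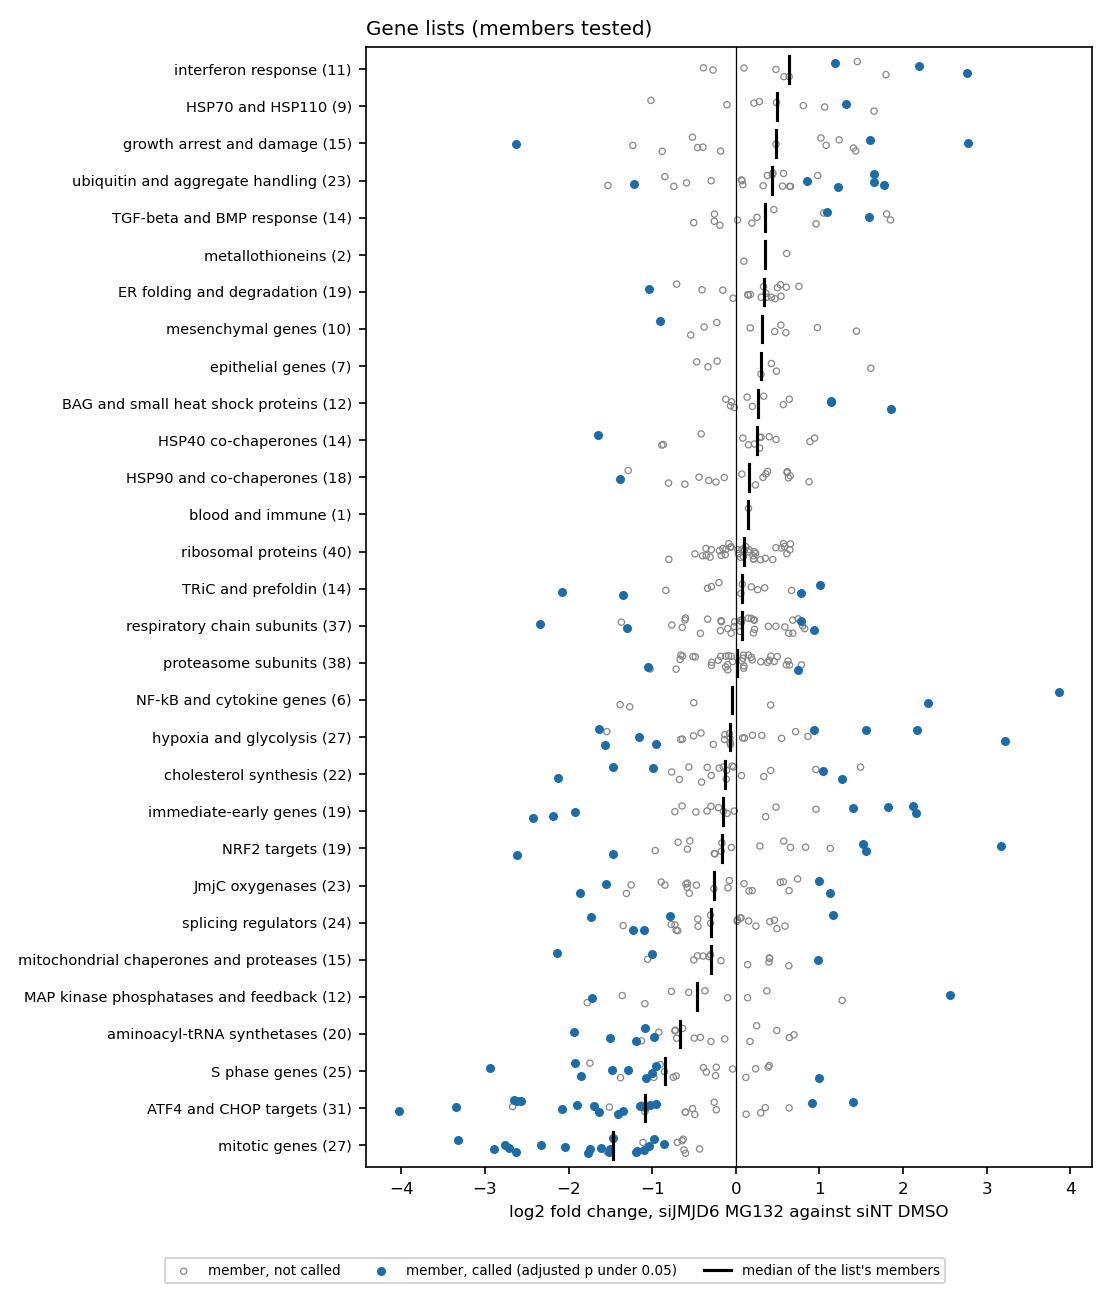
Log2 fold change between siJMJD6 MG132 and siNT DMSO for the tested members of the gene lists plotted, with filled points for called genes, open points for genes not called and a bar at each list's median. Not every list is plotted. Among the lists plotted, the medians run from -1.47 for the mitotic genes and -1.09 for the ATF4 and CHOP targets to 0.64 for the interferon list.

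The 10 largest rises among genes averaging at least 50 over the 4 libraries included 3 replication-dependent histone genes, whose mRNAs normally lack a poly(A) tail, so that a 3' tag method reads only their polyadenylated forms. HIST1H2AE had 7.71 and 0 normalised counts in siNT DMSO, 6.22 and 3.71 in siNT MG132 and 164 and 58.6 in siJMJD6 MG132. HIST1H2BD had 9.45 and 1.78, 11.4 and 8.43, and 135 and 112 in the same order. Both siNT groups were near the lower limit of the table and the knockdown libraries stood far above them. HIST1H2AE and HIST1H2BD were included only through the knockdown libraries, so their log2 fold changes of 5.07 and 4.53 are descriptions. HIST2H2BE, at 14.7 and 2.49 in siNT DMSO against 120.0 and 82.8, rose by 3.76 ± 0.67 (adjusted p = 0.00355). HIST1H2BK, at a higher level, had 166 and 142 in siNT DMSO against 1190.0 and 677 in siJMJD6 MG132 and rose by 2.54 ± 0.32 (adjusted p = 0.000424). HIST1H4C went the other way, from 726 and 373 to 74.5 and 107, and fell by 2.53 ± 0.36 (adjusted p = 0.000939). HIST1H2BK and HIST1H4C were chosen after their values were seen.

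SNAR-G1 and SNAR-H, also among the 10 largest rises, belong to the snaR genes, a primate family of small noncoding RNAs with near-identical copies whose tags are hard to assign. SNAR-G1 had 22.6 and 32.0 normalised counts in siNT DMSO, 7.25 and 46.3 in siNT MG132 and 683 and 477 in siJMJD6 MG132, and rose by 4.36 ± 0.62 (adjusted p = 0.000872). SNAR-H rose by 4.16 ± 0.72 (adjusted p = 0.00298). The tight junction gene CLDN14 (3.61) and the oestrogen receptor GPER1 (3.65) were included only through the knockdown libraries. The other large rises were those of the deiodinase DIO3 (4.83 ± 1.13), the reductase DHRS2 (3.66 ± 1.00) and the ephrin receptor EPHB3 (3.96 ± 1.21). These 3 had wide errors. Their calls were lost without siNT DMSO library 1 (adjusted p = 0.119, 0.233 and 0.258), that of DIO3 also without siJMJD6 MG132 library 2 (adjusted p = 0.0965), and those of DHRS2 and EPHB3 also without any of 4 and 5 other libraries. DIO3 was at 0 in siNT DMSO library 1, and HIST1H2AE in library 2, so their fold changes depend on the pseudocount. Among abundant genes IGFBP6, which binds insulin-like growth factors, rose by 2.98 ± 0.37 (adjusted p = 0.000396), and S100A13, a calcium-binding protein, by 2.599 ± 0.30 (adjusted p = 0.000232). S100A13 had 1292 and 946 in siNT DMSO, 1231 and 1213 in siNT MG132 and 9629 and 4670.0 in siJMJD6 MG132.

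After DDIT4 the largest falls were those of the collagen gene COL1A2 (-3.75 ± 0.39, from 330 and 212 to 17.1 and 20.3), the small nuclear RNA gene RNU5F-1 (-3.61 ± 0.44), CHAC1, PRR11, the inositol kinase ITPK1 (-3.03 ± 0.36), the amino acid transaminase BCAT1 (-2.99 ± 0.39), the zinc transporter SLC39A10 (-2.93 ± 0.34), the microtubule-binding protein EML4 (-2.82 ± 0.25) and the chromatin protein HMGB2 (-2.82 ± 0.48). RNU5F-1 is a member of a multicopy family, so its tags are uncertain. RHOA, the GTPase that sets actin tension, had 514 and 543 normalised counts in siNT DMSO, 500 and 568 in siNT MG132 and 93.7 and 112 in siJMJD6 MG132. It fell by 2.35 ± 0.23 (adjusted p = 0.000115). None of the genes of this paragraph was called between siNT MG132 and siNT DMSO (adjusted p of 0.242 or more).

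**Figure D4:**
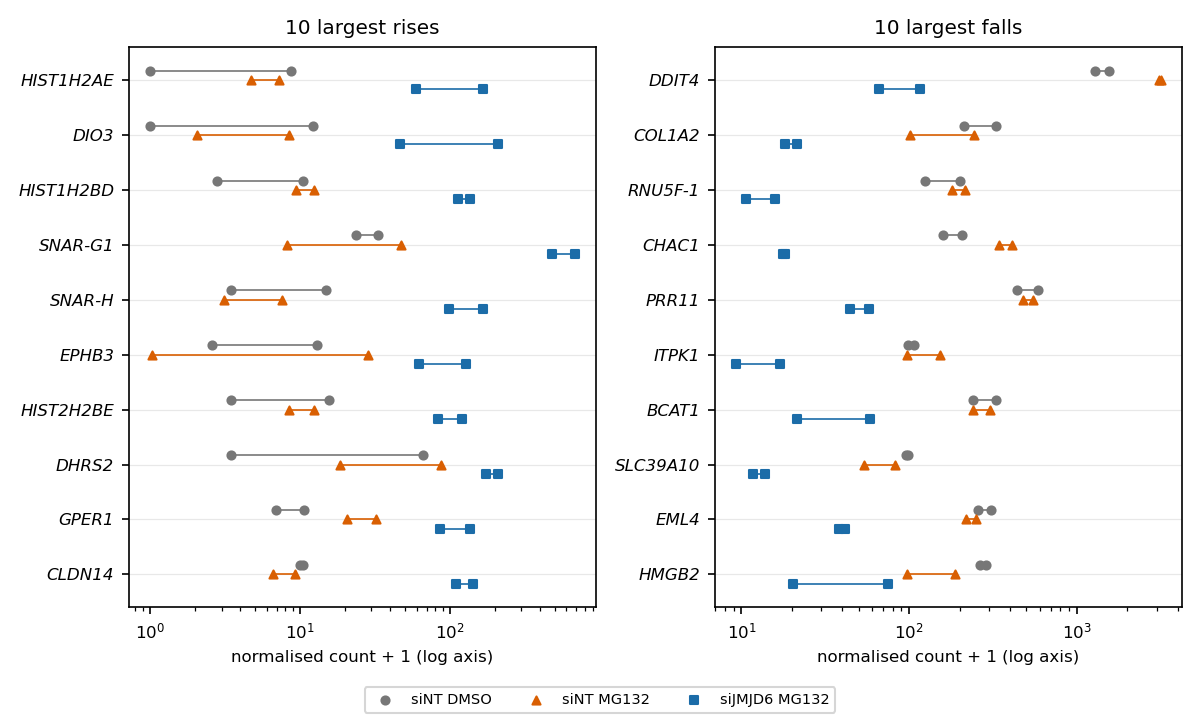
Normalised count plus 1 (log axis) of the 10 largest rises and 10 largest falls between siJMJD6 MG132 and siNT DMSO, with each library as a point and a line joining the 2 libraries of a group. The squares of siJMJD6 MG132 stand apart from both siNT groups in all 20 genes, and both siNT MG132 libraries lie above both DMSO libraries for DDIT4, CHAC1 and GPER1.

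The heat shock table holds the same knockdown without MG132, in libraries that share none with the MG132 table. There siJMJD6 against siNT, both after heat shock, called 21.4% of 9831 genes higher and 24.9% lower. Of the 604 genes called higher in siJMJD6 MG132 against siNT DMSO, where drug and knockdown both differ, 584 were fitted in both tables. Of these, 461 (78.9%) were also called higher after heat shock, beside 21.9% of all 8977 genes in both tables. They made up 23.4% of the genes called higher after heat shock. Of 691 genes called lower in siJMJD6 MG132 against siNT DMSO, 559 (80.9%) were also called lower after heat shock, beside 25.5% of all. They made up 24.4% of the genes called lower there. Calls in opposite directions numbered 13 and 2. The 584 and 691 genes hold some that were included only through the group where they were high, whose calls against siNT DMSO carry no weight. Across the 8977 genes the log2 fold changes correlated at r = 0.682 (Spearman's rho 0.629), as a description over genes that are not independent and share the cell line and the siRNA. Set against basal siNT cells, where knockdown and stress both differ, siJMJD6 heat shock called 22.2% of genes higher and 24.2% lower. Of the genes called in siJMJD6 MG132 against siNT DMSO, 82.9% of the higher and 80.9% of the lower were called the same way, with r = 0.697.

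**Figure D5:**
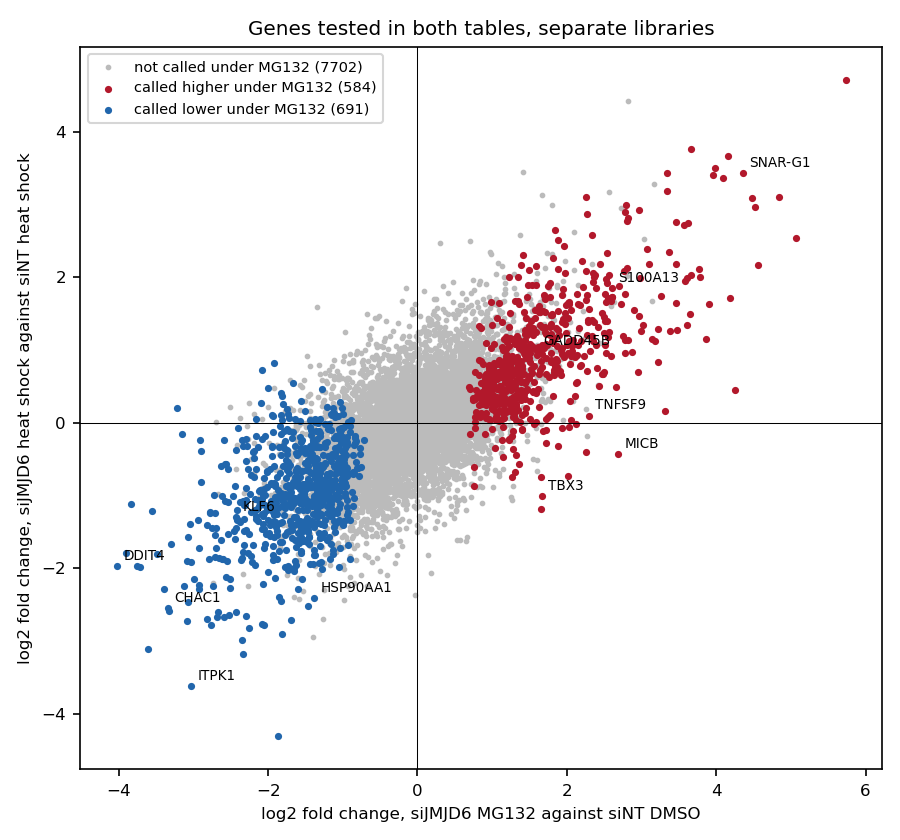
Log2 fold change between siJMJD6 and siNT after heat shock (vertical) against that between siJMJD6 MG132 and siNT DMSO (horizontal) for 8977 genes tested in both tables. Colours give the call in siJMJD6 MG132 against siNT DMSO, where drug and knockdown both differ (written as under MG132 in the legend). Genes called higher lie mostly in the upper right and genes called lower in the lower left, while MICB and TBX3 lie at the right below the horizontal line.

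Gene by gene, the 2 tables placed the named genes as follows. DDIT4 had a log2 fold change of -1.97 between siJMJD6 and siNT after heat shock, CHAC1 -2.54, ASNS -1.08, PRR11 -2.58 and AURKA -1.48. HSP90AA1 had -2.41, S100A13 1.85, SNAR-G1 3.43 and HIST1H2BD 2.98. All 9 were called, in the direction seen in siJMJD6 MG132 against siNT DMSO (adjusted p from 6.72e-25 to 6.56e-09). HIST1H2BD was included only through the knockdown libraries, so its direction against siNT DMSO carries no weight. TBX3 had -1.01 and HSPA1B -0.68, both called lower (adjusted p = 3.94e-08 and 2.19e-08), and PPP1R15A 0.60, called higher (adjusted p = 0.00141). Genes that stood above DMSO under MG132 with JMJD6 knockdown, mostly with no detected difference from siNT MG132, differed among themselves there. IER5L had 2.04, GADD45B 0.98 and IER5 0.36, all called higher (adjusted p = 9.96e-14, 3.61e-06 and 0.0128). MICB had -0.43 and was called lower (adjusted p = 0.0437), and TNFSF9 had 0.10 and was not called (adjusted p = 0.618). TXNIP had -0.59 (adjusted p = 3.35e-06), KLF6 -1.30 (adjusted p = 2.36e-11) and DUSP6 0.07 (adjusted p = 0.562). Against basal siNT cells, siJMJD6 cells after heat shock had higher HSPA1B (1.17), HSPA1A (1.70), DNAJB1 (0.89), TBX3 (2.16), TRIM26 (2.28) and MICB (1.41), and lower HSP90AA1 (-1.81), all of them called. Over the lists, 20 of 27 mitotic and 22 of 31 ATF4 and CHOP genes were called lower between siJMJD6 and siNT after heat shock, with medians of -0.68 for both, beside 24.9% lower over all genes fitted there.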

How the data were processed

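RNA of PC3M cells was measured by QuantSeq FWD, a 3' tag method, in 8 libraries of an MG132 table and 9 of a separately normalised heat shock table. The deposited values are the authors' normalised counts per gene (a signal that need not be whole), and neither the scaling method, the annotation nor the strand setting is given in the sources used here. FastQC 0.11.2, STAR 2.6.0, HTSeq and hg38 are named per the submitters' processing notes. Whole reads could not be recovered in every library, so counting error per gene is unknown.

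The members and gene lists were chosen with earlier results of these data known. limma 3.58.1 (R 4.3.3) was fitted to log2(normalised count + 1), a scale that understates changes of low genes, with 1 mean per group and a variance trend over all libraries of a table. Genes needed a value of 10 in at least 2 of 8 libraries (MG132, 9778 genes, 4 residual degrees of freedom) or 3 of 9 (heat shock, 9831 genes, 6 residual degrees of freedom). Tests were two-sided, with Benjamini-Hochberg adjustment and a threshold of 0.05. A check on simulated data used independent normal noise on the log2 scale, which the method assumes. It does not show the rate of false calls in the real libraries. Errors are standard errors of the log2 difference. The members of the comparison needed 10 in at least 2 of its 4 libraries.

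Named were JMJD6, HSF1, TBX3, PPP1R15A, HSPA1B, 8 chaperones, the 10 largest called rises and falls with a mean of at least 50, and up to 3 called members per list by adjusted p. Genes named outside this rule were chosen after their values were seen, namely those called in siNT MG132 and ATF4, ATF3, NUPR1, PSAT1, SLC7A5, UBB, PLK1, FOXM1, MDM2, RHOA, IGFBP6, S100A13, HIST1H2BK, HIST1H4C, FOSB, ANKRD37 and GDF15. Gene coordinates are from GENCODE 29 (GRCh38) by symbol, and 34 list symbols were matched through older names in RefSeq. Some results are not reported here. Alternatives covered the pseudocount, filter, scaling, variance model, the groups fitted, a replicate block and leaving out each library.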

Additional observations from a re-analysis of the deposited data

Results flagged for a closer look

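For 16 of 130 named genes, some of them named after their values were seen, both siNT MG132 libraries lay on one side of both siNT DMSO libraries. Both siJMJD6 MG132 libraries lay on the other, and the direct test between the MG132 groups was called (limma, adjusted p under 0.05). Such an order sets the MG132 groups apart by itself, so the direct-test call is not separate support. Only HSP90AA1 among them was called between siNT MG132 and siNT DMSO, so for the others that side rests on the order of 2 libraries per group. HSPA8 and HSP90AB1 were called against siNT DMSO in neither MG132 group. Over all 9199 members the order and the direct-test call held for 323 genes. Of these, 178 were above DMSO in siNT MG132 and below it in siJMJD6 MG132, and 145 the reverse. Separation of siJMJD6 MG132 from siNT DMSO alone was common, at 27.8% of members above and 30.4% below.

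Log2 differences of siJMJD6 MG132 from siNT MG132 among the stress genes were -5.16 for DDIT4, -4.40 for CHAC1, -2.17 for ATF4, -1.73 for SLC7A5, -2.25 for GARS and -2.14 for HERPUD1. Among chaperones they were -2.90 for HSP90AA1, -1.11 for HSP90AB1, -1.65 for HSPA8 and -2.08 for DNAJB12. JMJD6, which MG132 libraries of siNT cells held above DMSO, differed by -2.75, and the splicing regulator TRA2B by -1.75. The reverse order, below DMSO in siNT MG132 and above it after knockdown, was seen for CLDN14 (3.99), the immediate-early factor FOSB (3.33), ANKRD37 (2.75) and ISG15 (1.43). The direct-test call was lost without siNT MG132 library 1 for HSP90AB1 (adjusted p = 0.0589), HSPA8 (adjusted p = 0.0948), FOSB (adjusted p = 0.0517) and ISG15 (adjusted p = 0.0563), without siNT MG132 library 2 for DNAJB12 (adjusted p = 0.0710), and also without siJMJD6 MG132 library 1 for FOSB (adjusted p = 0.0512). CLDN14 and FOSB reached 10 in neither siNT DMSO library, and DNAJB12 in neither siJMJD6 MG132 library.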

How the results depend on the processing

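The 604 higher and 695 lower calls became 307 and 329 with no filter on low values, 312 and 349 with no variance trend, and 396 and 347 with only the 2 groups fitted. Mitotic calls were 12 with no filter and 9 with no trend, S phase calls 3, 2 and (only the 2 groups) 5, and ATF4 and CHOP calls 7 with no trend. The siNT MG132 calls were 6 with no filter, and calls between the MG132 groups 675 with no filter and 687 with only those groups. A stricter filter left 2885 calls between siJMJD6 and siNT after heat shock and 2919 against basal cells. Leaving out 1 library gave 215 to 658 higher, 215 to 899 lower, 7 to 19 ATF4 and CHOP, 7 to 23 mitotic, 1 to 11 S phase, 10 to 31 siNT MG132 and 351 to 1268 MG132 group calls, and 3946 to 4705 and 3942 to 4603 calls in the heat shock table. With a replicate block, where the shared number is not known to pair libraries (correlation of same-numbered deviations 0.318 between siNT DMSO and siJMJD6 MG132), 912 were higher, 988 lower and 41 called in siNT MG132. Of 111 named calls against DMSO, 55 held in every alternative, as did 47 of 93 between the MG132 groups and 6 of 26 in siNT MG132. Directions turned in genes that were not called: GDF15 (-0.47 without siNT DMSO library 1 to 1.17 without library 2), BAG3 (0.33 without siNT DMSO library 2, and -0.71 to 0.47 without siJMJD6 MG132 library 2 or 1) and MDM2 (-1.29 to 0.25 without siJMJD6 MG132 library 1 or 2). The causes were not tested.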
